A study of Mus musculus with 20 samples.

Results

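The miR-379 to miR-410 cluster is a run of microRNA (miRNA) hairpins in the imprinted Dlk1-Dio3 region of mouse chromosome 12, ending inside the long noncoding RNA gene Mirg. Members were chosen by precursor name, from a list of 33 hairpins, with each arm counted as its own miRNA and 1 row kept per mature name. The serum table listed 32 of the 33 precursors, with 66 mature names among 1915 in all. The names miR-299b-5p and miR-299b-3p repeat the reads of miR-299a, since their sequences lie wholly inside those of miR-299a, which leaves 64 distinct members. At least 1 read was found for 53 of them and none for 11. The precursor mir-496 has no row under that name, and miR-496a-3p, which the table lists instead, had 62 reads and is not counted as a member.

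Small RNA was sequenced from serum of female mice of the Ames dwarf stock, kept on a heterogeneous genetic background, in 4 groups of 5 libraries. Normal mice were 5 to 6 months old (young normal) or 21 to 22 months old (old normal), and Ames dwarf mice were of the same ages (young dwarf, old dwarf). The labels give no drug or diet, and they do not say whether the 5 libraries of a group came from 5 separate mice, so p-values measure the spread between these samples. Total counts ran from 1343137 to 4710263 per library, and amplified reads are not independent molecules. Levels are read counts scaled to library size (CPM), with TMM factors applied, and the ± after a mean is the SD (n = 5).

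Ames dwarf mice lack growth hormone, prolactin and thyrotropin and are long-lived. The cluster is expressed from the maternal chromosome, is found in placental mammals, and is best known from brain, where miR-134 acts on dendritic spines. A mature miRNA is loaded into an Argonaute protein and pairs with target mRNAs mainly through its seed, bases 2 to 8. The hairpins are thought to be cut from a long transcript that crosses the region, so members share a source and are not independent measurements. In serum, fewer releasing cells and less RNA per cell cannot be told apart.

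The cluster spans chr12:109709060-109743795 on the plus strand of GRCm38, 34.7 kb from the first hairpin to the last. Hairpins of 31 member precursors were found in RefSeq (GRCm38.p6): 20 lie upstream of Mirg, between annotated genes, and 11 lie inside Mirg (chr12:109729764-109749460 in GENCODE M21), 8 of these overlapping an exon. RefSeq gave mature sequences for 62 of the 66 names. The 6 most read members, the first member of the cluster and 5 others that the results turn on are printed from the 5′ end in cluster order, with the seed in capitals. There was no entry for miR-376c-3p.
miR-379-5p: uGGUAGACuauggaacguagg
miR-411-5p: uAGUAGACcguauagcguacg
miR-299a-3p: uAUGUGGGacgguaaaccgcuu
miR-376b-5p: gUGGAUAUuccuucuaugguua
miR-300-3p: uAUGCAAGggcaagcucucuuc
miR-381-3p: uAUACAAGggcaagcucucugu
miR-134-5p: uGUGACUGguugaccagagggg
miR-154-5p: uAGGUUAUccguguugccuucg
miR-541-5p: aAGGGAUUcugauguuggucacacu
miR-409-3p: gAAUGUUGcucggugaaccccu
miR-369-5p: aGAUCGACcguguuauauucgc
miR-410-3p: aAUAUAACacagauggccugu

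The members are not a seed family. Among 60 distinct members with a sequence there were 57 different seeds, and 3 seeds were shared by a pair each: miR-376b-5p with miR-376c-5p, miR-379-3p with miR-411-3p, and miR-410-5p with miR-494-5p. The closest pair among the abundant members was miR-381-3p and miR-300-3p, which differ by A4G, G21U and U22C (the base of miR-381-3p first, positions counted from 1 at the 5′ end). The first of these lies in the seed. How many mismatches the counting allowed is not given in the sources used here, so reads could have been split between this pair, and between miR-376b-3p and miR-376a-3p (A4G, C13A, U20G). The first and second hairpins give 5p miRNAs whose seeds differ only by G2A, miR-379-5p and miR-411-5p.

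Reads were spread very unevenly over the cluster. The 64 distinct members held 22808 reads in the 20 libraries, and 85.6% of these belonged to 6 miRNAs: miR-541-5p (6420 reads), miR-381-3p (4589), miR-410-3p (3676), miR-300-3p (2148), miR-411-5p (1864) and miR-409-3p (838). These names come from hairpins 29, 19, 33, 18, 2 and 30 in cluster order, so highly read and rare members are interspersed along the cluster. Although the cluster is named after it, miR-379-5p had 5 reads in all, of which young normal serum held 3, young dwarf 2 and both old groups 0, where 3 reads per group is the limit that a count of 0 allows. The neighbouring miR-411-5p, 1.115 kb further on, had 1864. Ligation and amplification favour some small RNA ends over others, so read numbers do not give molar ratios between members.

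**Figure D1:**
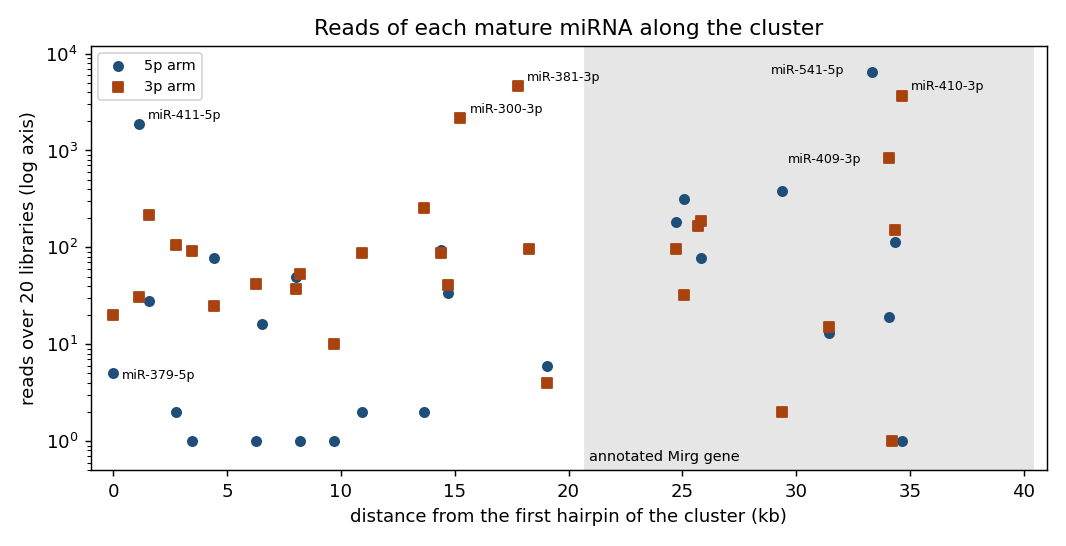
Reads of each distinct member with at least 1 read, summed over 20 libraries (log axis), against the distance of its hairpin from the first hairpin of the cluster in kb, with circles for 5p and squares for 3p arms. The annotated Mirg gene is shaded, miR-666 is placed by its 5p arm, and miR-541-5p with 6420 reads stands over 3 orders of magnitude above miR-379-5p with 5.

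One arm dominated in most hairpins. Of 29 precursors with at least 10 reads, 10 gave mostly the 5p arm and 19 mostly the 3p arm, and in 11 the lesser arm held at least 10% of the reads. Among these 29, no read of the other arm was found for mmu-mir-541, mmu-mir-381, mmu-mir-300, mmu-mir-668, mmu-mir-487b or mmu-mir-679 (mmu marks a mouse name). The arms were close to balanced in mmu-mir-376b, where 51.4% of reads were 5p (95% exact binomial interval 43.9 to 58.9%, counting error only), and in mmu-mir-369, where 43.2% were (37.1 to 49.4%). Rarer hairpins with a similar split were mmu-mir-666 (57.5%, 46.4 to 68%), mmu-mir-376a (45.3%, 33.8 to 57.3%), mmu-mir-377 (46.4%, 27.5 to 66.1%) and mmu-mir-539 (60%, 26.2 to 87.8%). For mmu-mir-369, the only precursor with both arms tested, the 5p share was 42.4% among young normal reads (31.7 to 53.6%), 43% among those of young dwarfs (34 to 52.3%) and 46.4% among those of old dwarfs (33 to 60.3%), intervals that overlap. Old normal serum had 2 mir-369 reads in all, both 3p.

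The summed cluster was lowest in old normal serum. In young normal libraries 1 to 5 it came to 64.1, 662, 437, 81.1 and 724 CPM. The old normal libraries gave 32.7, 44.8, 34.2, 57.8 and 45.3 CPM, the young dwarf ones 168, 817, 1186, 734 and 1108 CPM, and the old dwarf ones 883, 140.1, 99.7, 815 and 1302 CPM. All 15 libraries of the other groups lay above the highest old normal library. Replicates 1 and 4 of young normal, 1 of young dwarf, and 2 and 3 of old dwarf lay far below the rest of their groups, while the 5 old normal libraries were alike. The group means were 394 ± 312 CPM for young normal, 42.9 ± 10.1 for old normal, 803 ± 403 for young dwarf and 648 ± 517 for old dwarf. Without the TMM factors, old normal libraries ran from 23.0 to 52.3 and all others from 61.1 to 1793 CPM.

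**Figure D2:**
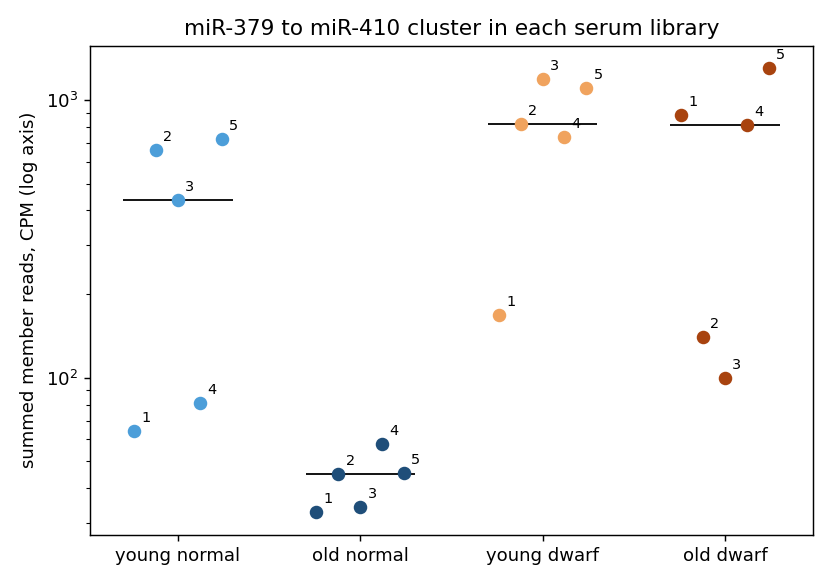
Summed CPM of all distinct members in each library (log axis) by group, with the replicate number beside each point and a line at the group median. Old normal libraries lie between 32.7 and 57.8 CPM, below all others, and the 3 other groups each split into high and low libraries.

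Some other serum RNA moved with or against the cluster from library to library. In young normal replicates 1 and 4, miR-133a-3p, a muscle miRNA, was at 1061 and 1075 CPM against 3352 to 7547 in the other 3. In the same pair miR-128-3p, known from brain, was at 11799 and 5904 CPM against 1058 to 1680. Old normal libraries had 4642 to 14028 CPM of miR-128-3p and 314 to 3969 CPM of miR-133a-3p. Old dwarf replicates 2 and 3 had 8673 and 5751 CPM of miR-128-3p against 735 to 932 in the other 3, and 2436 and 1974 CPM of miR-133a-3p against 2911 to 5555. The other muscle markers were rare, with 349 reads of miR-208a-3p, 122 of miR-1a-3p and 3 of miR-206-3p in the whole series. In old dwarf replicates 1 to 5, miR-208a-3p did not follow miR-133a-3p, at 1.08, 11.8, 3.94, 10.9 and 2.98 CPM. There miR-1a-3p was at 3.77, 1.43, 1.69, 0.682 and 3.48 CPM. TMM factors were 0.674 to 0.906 in old normal and 0.698 to 1.51 in the other groups. Of 4 brain markers, miR-124-3p had 8 reads and miR-9-5p had 43 in the whole series, and the summed brain list, nearly all miR-128-3p, ran from 4646 to 14034 CPM in old normal, 1061 to 11804 in young normal, 586 to 8053 in young dwarf and 739 to 8679 in old dwarf. The summed red cell list (3 miRNAs) was mostly miR-486a-5p. This sum ran from 343872 to 517641 CPM in old normal and 182506 to 446938 in young normal. For young dwarf libraries it ran from 153559 to 324265 CPM, and for old dwarf ones from 244387 to 497548. The rest of the list went the other way, with its lowest means in old normal. There miR-451a averaged 18409 CPM, against 30615 to 36605 for the other groups. Likewise, miR-144-3p averaged 377 CPM there, against 451 to 611 elsewhere. The haemolysis index, which sets red cell miR-451a against miR-23a-3p as a log2 ratio, averaged 4.3 ± 0.7 for old normal libraries and 5.45 ± 0.61, 5.4 ± 0.43 and 5.38 ± 0.44 for those of young normal, young dwarf and old dwarf. The lymphocyte miRNA miR-150-5p ran from 1418 to 4740 CPM in old normal, 572 to 1823 in young normal, 580 to 1362 in young dwarf and 624 to 1367 in old dwarf, and the endocrine miRNA miR-375-3p from 830 to 3927, 196 to 1374, 194 to 1298 and 171 to 2295 CPM in the same order. The other marker of the pituitary and endocrine list, miR-7a-5p, had 11 reads in the whole series. The part of these shifts in the results for the cluster was not tested, apart from a fit with the index given below.

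Between old dwarf and old normal mice, tested members were higher in the dwarfs. A low-count filter left 360 of the 1915 names and 17 distinct members from 16 precursors (18 names with miR-299b-3p). These 17 are not all members, since each needed reads in enough of the 20 libraries to pass. By the quasi-likelihood test of edgeR, with Benjamini-Hochberg adjustment over the 360, 14 of the 17 were higher in serum of old dwarfs and 0 were lower. Over all 360 miRNAs, 16.1% were higher and 10.3% were lower by the same rule. The median log2 fold change over the 18 tested names was 3.56, or 3.32 with a member absent from old normal set to its lower bound, beside -0.06 over all 360. Most members passed the filter through the groups where they are high: with only these 2 groups in the fit, 5 members passed it. All 5 were higher, and 63 of 300 miRNAs were called in either direction. This filter still counted the old dwarf libraries, where members are high, so that fit does not remove the dependence.

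miR-410-3p, from the last hairpin and within a Mirg exon, was at 8.55, 13.4, 5.17, 9.81 and 11.3 CPM in the old normal libraries. In old dwarf it was at 138, 29.4, 27.0, 145 and 185 CPM. The groups did not overlap, and old dwarf replicates 2 and 3 were the lowest of theirs. The log2 fold change was 3.45 ± 0.68 (SE), with an edgeR adjusted p of 0.0030. Its seed also occurs in miR-344d-3p and miR-344e-3p, which are not members.

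miR-541-5p, the most read member, lies in an intron of Mirg. It was at 6.03, 5.37, 4.77, 13.6 and 6.87 CPM in old normal and at 258, 39.8, 25.9, 234 and 355 CPM in old dwarf. These groups did not overlap, and the log2 fold change was 4.63 ± 0.94 (edgeR adjusted p = 0.0030). It took 12 to 23.6% of the cluster's reads in old normal libraries and 26 to 29.3% in old dwarf ones, a share that was looked at after its values were seen and not tested.

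miR-411-5p, near the upstream end, was at 0.503, 0.896, 0, 3.27 and 2.75 CPM in old normal and at 69.4, 10.4, 5.63, 69.6 and 82.0 CPM in old dwarf. The lowest old dwarf library was above the highest old normal one. Its log2 fold change was 4.91 ± 1.0 (edgeR adjusted p = 0.0030). miR-381-3p was at 5.03, 2.69, 4.37, 7.08 and 3.78 CPM in old normal and at 209, 16.5, 10.7, 156 and 400.0 CPM in old dwarf. It did not overlap between the groups either and differed by 5.08 ± 1.04 on the log2 scale (edgeR adjusted p = 0.0031).

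miR-300-3p, the near copy of miR-381-3p, was at 3.52, 8.96, 8.35, 5.45 and 7.21 CPM in old normal and at 68.4, 15.1, 9.58, 89.4 and 102 CPM in old dwarf. Its difference was 3.08 ± 0.69 on the log2 scale (edgeR adjusted p = 0.0056). miR-409-3p was at 3.52, 6.27, 1.99, 1.63 and 3.43 CPM in old normal and at 21.5, 8.24, 5.07, 20.5 and 36.3 CPM in old dwarf. Old dwarf replicate 3 fell within the old normal range here, and the log2 fold change was 2.48 ± 0.57 (edgeR adjusted p = 0.0056). Whether the fold changes of these members differ from each other was not tested.

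Several members were almost absent from old normal serum. miR-154-5p had 1 read over the 5 old normal libraries and 87 over the old dwarf ones, a ratio of 91.1 in pooled CPM (95% counting interval 15.9 to 3640.0). miR-376c-3p had 1 and 57 reads (ratio 59.7, 10.3 to 2399), and miR-376b-5p had 1 and 23 (ratio 24.1, 3.91 to 992). miR-369-5p had 0 reads in old normal and 26 in old dwarf, which makes it at least 9.08-fold higher in pooled CPM against a floor of 3 reads over the group. These ratios, intervals and the bound pool the reads of each group and leave out the spread between libraries. In old dwarf libraries 1 to 5, miR-369-5p had 8, 1, 0, 6 and 11 reads and miR-376b-5p had 7, 0, 1, 8 and 7. The groups overlapped for both. The single old normal reads of miR-376c-3p and miR-376b-5p were both in replicate 4. All of these were among the 14, and so were miR-382-5p, miR-134-5p, miR-668-3p and miR-369-3p, with log2 fold changes of 3.79 ± 1.01, 2.75 ± 0.89, 2.03 ± 0.52 and 3.66 ± 1.30.

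Not past the threshold were miR-299a-3p (2.86 ± 1.08, edgeR adjusted p = 0.055), miR-487b-3p (2.72 ± 1.09, 0.066) and miR-485-3p (1.46 ± 0.63, 0.082). miR-485-3p had the smallest fold change of the 17, at 1.67 ± 0.49 CPM against 4.7 ± 2.3 in old dwarf. Of the 17, 7 had groups that did not overlap, beside 7.78% of all 360 miRNAs: miR-411-5p, miR-376c-3p, miR-300-3p, miR-381-3p, miR-154-5p, miR-541-5p and miR-410-3p. With the haemolysis index as a covariate, 0 members and 0 of all 360 miRNAs passed. In that fit the median log2 fold change over the 18 names was 2.85, and standard errors were larger: miR-410-3p differed by 3.11 ± 0.94 and miR-409-3p by 2.45 ± 0.76 (edgeR adjusted p = 0.093 for both). Leaving out old dwarf replicate 5 lowered the count of names called from 14 of 18 tested to 10 of 21, the lowest count of the 20 leave-one-out fits. Calls over all miRNAs fell as well, from 95 of 360 to 51 of 369.

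**Figure D3:**
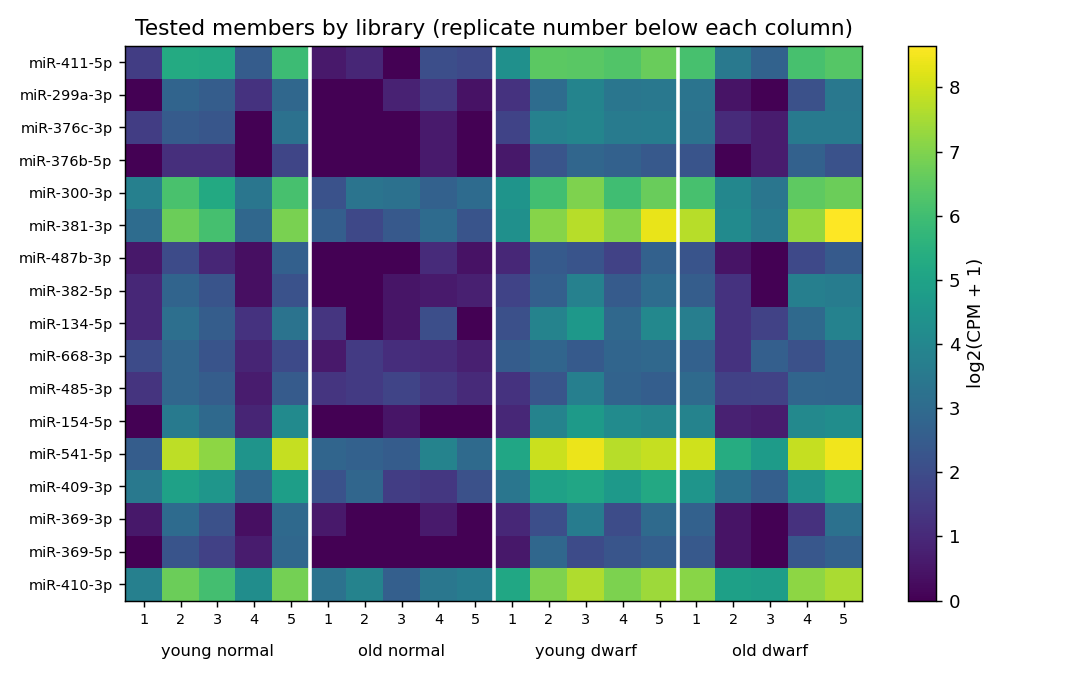
log2(CPM + 1) of the 17 distinct tested members (rows, in cluster order) in 20 libraries (columns, by group and replicate). Old normal columns are dark in nearly every row, and young normal 1 and 4, young dwarf 1, and old dwarf 2 and 3 are darker than the rest of their groups across most members.

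Between old and young normal mice, tested members were lower with age. By edgeR, 11 of the 17 were lower in old normal serum and 0 were higher, with 10.6% of all 360 miRNAs lower and 5% higher. The median log2 fold change over the 18 tested names was -2.73, beside -0.0042 over all 360, and every one of the 17 was negative. This comparison and the former share the old normal libraries, so their counts are not independent of each other.

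The smallest p-values belonged to miR-409-3p, miR-541-5p and miR-411-5p. miR-409-3p was at 10.2, 30.1, 22.5, 6.47 and 27.9 CPM in young normal libraries, all above the highest old normal value of 6.27. It fell by 2.57 ± 0.57 on the log2 scale (edgeR adjusted p = 0.012). miR-541-5p was at 4.85, 218, 143, 21.1 and 234 CPM in young normal, and replicate 1 lay within the old normal range. It fell by 4.07 ± 0.92 (edgeR adjusted p = 0.012). miR-411-5p was at 1.94, 37.7, 36.6, 4.78 and 59.9 CPM in young normal and fell by 4.17 ± 0.98 (edgeR adjusted p = 0.012), again with replicate 1 inside the old normal range.

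miR-410-3p (12.6, 104, 66.5, 17.7 and 112 CPM in young normal) fell by 2.71 ± 0.66, and miR-300-3p (12.6, 71.2, 36.9, 9.57 and 69.8 CPM) by 2.58 ± 0.68. miR-381-3p, at 7.28, 102, 68.0, 6.47 and 119 CPM in young normal, fell by 3.70 ± 0.99. miR-376c-3p, miR-668-3p, miR-154-5p, miR-369-3p and miR-369-5p also passed. The groups did not overlap for 2 members, miR-300-3p and miR-409-3p, beside 3.06% of all 360 miRNAs. In the fit with the haemolysis index 0 members passed, and 1 of the 360 did. The median over the 18 names was then -2.45, and miR-409-3p and miR-541-5p differed by -2.53 ± 0.75 and -3.36 ± 1.25 (edgeR adjusted p = 0.18 and 0.24). Leaving out 1 library gave counts from 6 (without young normal replicate 5) to 15 (without young normal replicate 1). Each of these 2 fits tested 21 member names, and they called 29 of 367 and 123 of 368 miRNAs. With only the normal groups in the fit, 5 members passed the filter. All 5 were lower, and 34 of 304 miRNAs were called in either direction. That filter counted the young normal libraries, where members are higher. The red cell miR-451a, the numerator of the index, itself fell by 0.99 ± 0.28 in old normal (edgeR adjusted p = 0.020).

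Between young dwarf and young normal mice, no member passed the test. All 17 had positive log2 fold changes, with a median of 1.04 over the 18 names, beside -0.04 over all miRNAs. By edgeR 0 members and 0% of the 360 miRNAs passed, 1 member had an unadjusted p under 0.05, beside 7.78% of the 360, and DESeq2 called 0 members, beside 0.833% of the 360 in each direction. That member was miR-376b-5p, at 0, 1.26, 1.23, 0 and 2.47 CPM in young normal and 0.474, 3.85, 6.28, 5.36 and 4.29 CPM in young dwarf (log2 fold change 1.98 ± 0.83, edgeR adjusted p = 0.45). miR-376c-3p was at 1.94, 4.61, 4.0, 0 and 8.46 CPM in young normal and 2.37, 12.8, 14.4, 11.1 and 11.3 CPM in young dwarf (1.45 ± 0.74, adjusted p = 0.62). miR-134-5p was at 0.971, 7.95, 4.93, 1.41 and 8.82 CPM in young normal and 3.32, 13.5, 23.7, 6.51 and 15.6 CPM in young dwarf (1.37 ± 0.72, adjusted p = 0.62). The groups overlapped for every tested member, and did not for 0.833% of all miRNAs on the higher and 1.11% on the lower side.

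Between old and young dwarf mice, no member passed either. The median log2 fold change over the 18 names was -0.58, beside 0.02 over all miRNAs, and all 17 values were negative, from -0.91 to -0.06. By edgeR 0 members passed, 0.556% of all miRNAs were higher and 0% were lower, and 0 members had an unadjusted p under 0.05, beside 3.89% of all. DESeq2 also called 0, beside 0.556% higher among all. The groups overlapped for each tested member, and did not for 0.833% of all miRNAs on the higher and 0.833% on the lower side. miR-134-5p, at 11.8, 1.43, 2.25, 6.82 and 13.4 CPM in old dwarf, differed by -0.82 ± 0.71 on the log2 scale. miR-409-3p differed by -0.56 ± 0.50, with 9.49, 30.2, 34.0, 24.9 and 35.8 CPM in young dwarf. miR-299a-3p differed by -0.91 ± 0.82, from 1.42, 7.38, 14.0, 9.57 and 10.1 CPM in young dwarf to 9.15, 0.358, 0, 3.41 and 9.94 CPM in old dwarf. The edgeR adjusted p was 0.997 for each of these.

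**Figure D4:**
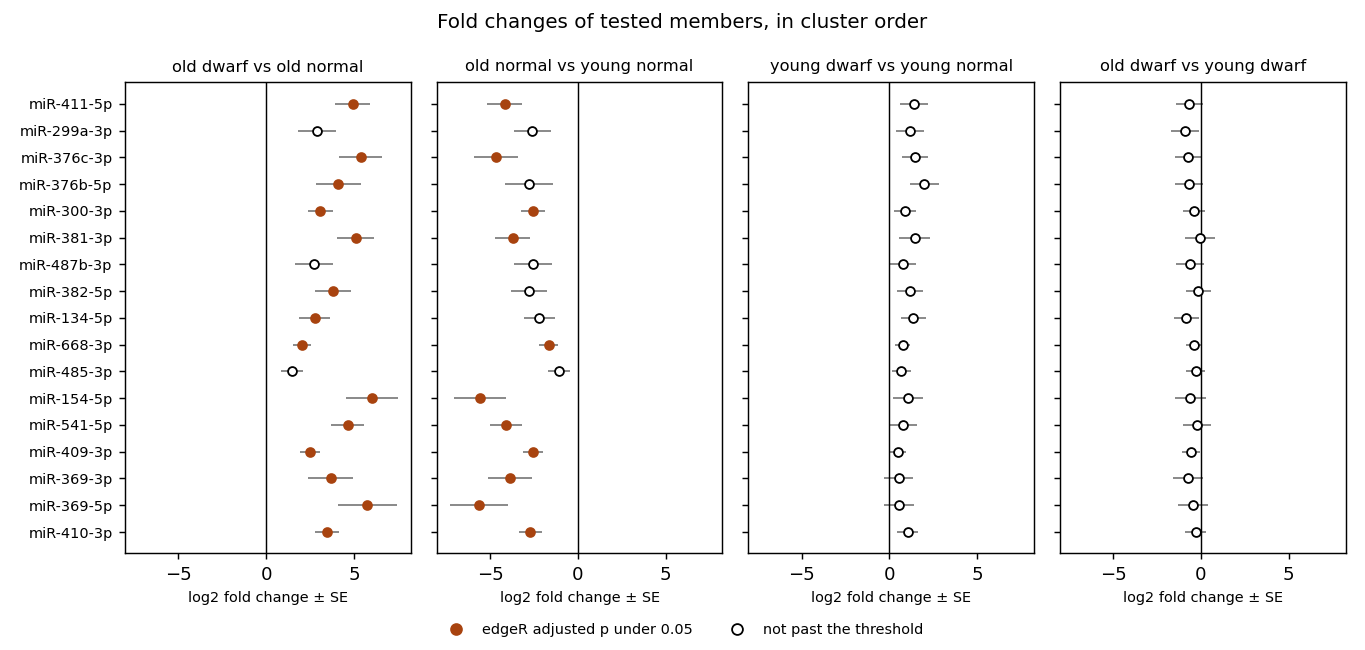
log2 fold change ± SE of the 17 distinct tested members in cluster order, in the 4 pairwise comparisons, with filled points for an edgeR adjusted p under 0.05. The old dwarf against old normal panel has 14 filled points, all positive, the old against young normal panel has 11, all negative, and the other panels have 0.

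The difference between the age effects of the genotypes (old minus young in dwarf, less old minus young in normal) was tested in the same model. All 17 differences were positive, with a median of 2.29 on the log2 scale over the 18 names, beside 0.01 over all miRNAs. By edgeR 0 members passed, beside 0.556% of all miRNAs higher, and 9 of 18 member names had an unadjusted p under 0.05, beside 15.8% of all. DESeq2 called 4 members, beside 4.72% of all miRNAs higher, and edgeR with no filter called 3, beside 1.01% of 1191. The smallest p-values were those of miR-541-5p (3.85 ± 1.18, edgeR adjusted p = 0.13), miR-411-5p (3.51 ± 1.24, 0.18) and miR-381-3p (3.64 ± 1.28, 0.18). By DESeq2 these had adjusted p-values of 0.023, 0.046 and 0.043. In young dwarf serum miR-541-5p was at 33.7, 249, 339, 209.9 and 236 CPM, miR-411-5p at 19.4, 88.6, 86.1, 78.1 and 101 CPM, and miR-381-3p at 19.4, 135, 211, 132 and 327 CPM. In each of the 3, replicate 1 was the lowest of its group.

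Members on both sides of the annotated Mirg start passed the test. Upstream of Mirg, 7 of the 42 distinct members were tested, and 5 of these were higher in the old dwarfs than in old normal mice (16.1% of all 360 miRNAs were), with a median log2 fold change of 4.1. Inside Mirg 10 of 22 were tested, and 9 were higher, with a median of 3.56. In old against young normal mice 4 of 7 and 7 of 10 were lower, beside 10.6% of all 360. The members too rare to test summed to 1.51 to 6.87 CPM in old normal libraries and to 5.34 to 36.4, 10.9 to 66.2 and 4.51 to 44.2 CPM in young normal, young dwarf and old dwarf. Libraries held 12 to 25 distinct members with a read in old normal, and 21 to 40, 33 to 44 and 16 to 42 in the other groups in the same order. With no filter, 18 of 53 distinct members with reads were higher in the old dwarfs against old normal, beside 5.63% of 1191 miRNAs, and 12 were lower in old than in young normal, beside 4.53%.

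The members followed each other closely over the 20 libraries. The Pearson correlation of a tested member's log2 CPM with the mean of the others ran from 0.80 (miR-668-3p) to 0.99 (miR-381-3p), with a median of 0.94. These points share groups, libraries and scaling factors, and the values are descriptions. Among non-members the 5 most like the member mean were miR-136-3p (0.99), miR-434-5p (0.99), miR-127-3p (0.99), miR-136-5p (0.98) and miR-434-3p (0.98). All 5 belong to the same imprinted region and lie antisense to Rtl1, a retrotransposon-derived gene. The next were miR-199a-3p and miR-199b-3p (0.97), which have the same reads, come from elsewhere in the genome and were chosen after their values were seen. miR-199a-3p was at 208 ± 73.9 CPM in old normal and 901 ± 542 CPM in old dwarf, and rose by 2.11 ± 0.57 on the log2 scale (edgeR adjusted p = 0.012).

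The other miRNAs of the imprinted region went the same way in these libraries. On the Meg3 side, including the set antisense to Rtl1, 12 of 30 names were tested. In old dwarf against old normal 11 of the 12 were higher and 0 lower, beside 16.1% and 10.3% of all 360, with a median log2 fold change of 3.74. In old against young normal 10 were lower, beside 10.6% of all 360, with a median of -3.62. miR-434-3p, miR-434-5p and miR-136-5p rose by 2.84 ± 0.53, 4.4 ± 0.83 and 5.59 ± 1.1 in old dwarf (edgeR adjusted p = 0.0030 for each). In old normal, miR-431-5p fell by 3.60 ± 0.75, miR-434-5p by 3.68 ± 0.81 and miR-136-5p by 4.63 ± 1.08 against young normal (edgeR adjusted p = 0.012 for each). In the other comparisons no name of this set passed, and the smallest p-values were those of miR-434-3p between young dwarf and young normal (1.27 ± 0.50, edgeR adjusted p = 0.41), miR-433-3p between old and young dwarf (-1.20 ± 0.61, 0.997) and miR-431-5p for the difference of the age effects (3.30 ± 0.95, 0.13). Of the 6 names on the Rian side, miR-341-3p alone was tested, with log2 fold changes of 2.9 ± 0.7 for old dwarf over old normal and -2.28 ± 0.7 for old over young normal, both past the threshold. The 7 names of other hairpins within the cluster were too rare to test. The summed Meg3 side ran from 62.4 to 129 CPM in old normal, 113.6 to 1670 in young normal, 419 to 2414 in young dwarf and 219.7 to 2438 in old dwarf.

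**Figure D5:**
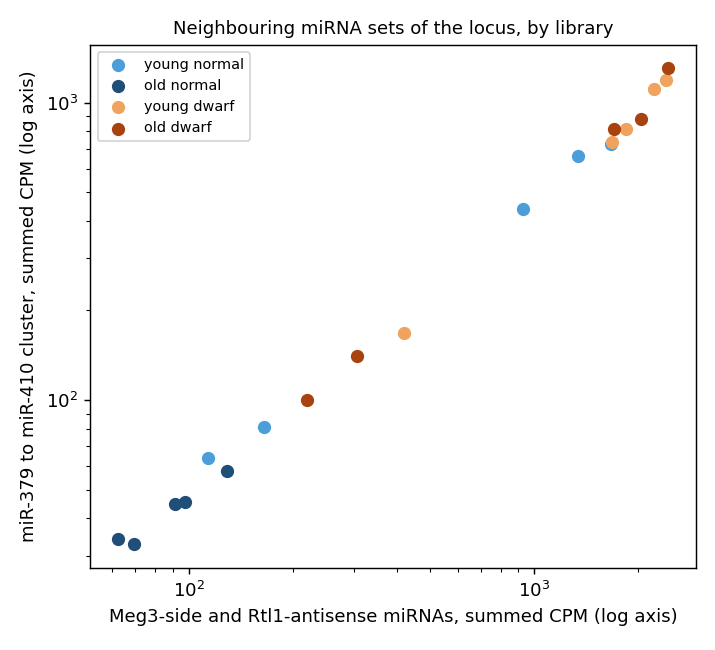
Summed CPM of the miR-379 to miR-410 cluster against that of the Meg3-side and Rtl1-antisense miRNAs, both on log axes, with a point for each of 20 libraries coloured by group. The points lie along a line from the old normal libraries (62.4 to 129 CPM on the horizontal axis) to old dwarf replicate 5 (2438 and 1302 CPM), and both axes share each library's scaling factor.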

How the data were processed

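Serum small RNA of 20 samples was analysed. Per the labels' protocols, total RNA came from a miRNeasy kit and libraries from Illumina's TruSeq small RNA reagents. The submitters' processing notes name Bowtie 0.12.8, bedtools, edgeR and GRCm38 (mm10), without saying what each was used for. The tests used the deposited read counts, whole numbers per mature miRNA and precursor, per the file headers. The RPM values made by the authors matched the counts over their column sum to within 0.005 and were used in no test. The authors' second file, a report on hairpin candidates, has no values per sample and was not used.

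For each of 1915 mature names the precursor row with the highest total was kept (115 names had several rows). Counts were tested with edgeR 4.0.16 (limma 3.58.1, R 4.3.3): TMM factors, the default filter by group (minimum count 10), 1 coefficient for each of 4 groups, quasi-likelihood tests over all 20 samples, and Benjamini-Hochberg adjustment over 360 miRNAs, with an adjusted p under 0.05 called. The SE is the size of the log2 fold change over the square root of F. Log2 CPM for correlations used a prior count of 2. DESeq2 1.42.0 was an alternative. The test was tried on simulated counts first.

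Members, lists and tests were chosen with earlier results of these data known. The naming rule took up to 8 members of smallest p in old dwarf against old normal with a mean of 10 CPM in a compared group, the most read, the first and the last member, and 3 of smallest p in each other comparison. It also took the 5 most correlated non-members and 3 miRNAs of the region per comparison. Other tested members may be named by value. Alternatives were other scalings, no filter, DESeq2, fewer groups, the replicate number as a block, the haemolysis index, summed precursor rows, and each library left out. Fragments of tRNA were not analysed here.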

Additional observations from a re-analysis of the deposited data

Results flagged for a closer look

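In 44 groups of 5 libraries, those of miR-379-5p and of the 10 members given library by library, 5 had a library whose gap to the nearest of the others exceeded Dixon's 95% limit. Chance gives about 1 in 20 for independent continuous values, a rate that does not hold for single reads or for members that move together. In old normal serum, replicate 4 had 13.6 CPM of miR-541-5p, where the others had 4.77 to 6.87. The same library had 0.545 CPM of miR-376b-5p and 0.545 CPM of miR-376c-3p, 1 read each, where the others had 0, so that the gap equals the whole range by construction. In young dwarf serum, replicate 1 had 19.4 CPM of miR-411-5p, where the others had 78.1 to 100.9, and 2.37 CPM of miR-376c-3p, where the others had 11.1 to 14.4.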

How the results depend on the processing

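No result changed direction under any alternative run. Members called between old dwarf and old normal (14) numbered 5 with only the groups compared, where 5 passed the filter and 63 of 300 miRNAs were called, and 0 with the haemolysis index as covariate, where 0 of 360 were. The median log2 fold change over the 18 names was 2.85 with the index and 3.56 without. Leaving out 1 library gave 10 (51 of 369 miRNAs, without old dwarf replicate 5) to 19 (143 of 365, without old dwarf replicate 2). Those between old and young normal (11) numbered 5 with only the groups compared (34 of 304 miRNAs) and 0 with the index (1 of 360), where the median was -2.45 against -2.73. Leaving out 1 library gave 6 (29 of 367 miRNAs) to 15 (123 of 368). For the difference of the age effects (0) the count was 3 with no filter (13 of 1191 miRNAs) and 4 with DESeq2 (20 of 360). Leaving out any library gave 0 there and in both other comparisons. Library totals without factors moved the median of all miRNAs to 0.23 in old dwarf against old normal and to -0.42 in old against young normal. Members called then numbered 16 (119 of 360 miRNAs) and 12 (106 of 360).

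Replicate numbers did not pair the samples: correlations of same-numbered deviations ran from -0.68 to 0.81, and 9 of 20 pairs exceeded 0.1. With the replicate block, 12 members were called in old dwarf against old normal (92 of 360 miRNAs), 7 in old against young normal (38 of 360) and 0 elsewhere. A sample's best match was its own number in at most 2 of 5 pairs of any comparison. Members under about 100 reads over 20 libraries could seldom be tested: the rarest tested member had 93 reads.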
